A study of Mus musculus with 12 samples.

Results

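Fibronectin, the integrin subunits that bind it or its relatives, and the kinases that gather at integrin adhesions were followed by their RNA in mouse mammary tumour cells recovered from the lung. The 10 genes were taken by name: the matrix ligand Fn1, the integrin beta subunits Itgb1, Itgb3 and Itgb5, the alpha subunits Itgav, Itga5 and Itga6, the kinases Ptk2 and Ptk2b, and the cytokine receptor subunit Il6st. Each name matched 1 of the 54146 genes in the table, and 9 of the 10 were among the 13002 genes with enough signal to be tested. Itgb3 was not. The tumour cells were D2A1, a mouse mammary carcinoma line carrying an inducible histone fused to green fluorescent protein and loaded with the membrane dye CellVue Claret, which thins out as cells divide. They were injected into the tail vein of young female mice and sorted from the lungs as green cells that kept the dye (dormant) or had lost it (growing). RNA was read from 12 libraries in 4 groups of 3: dormant cells from WT hosts, dormant cells from KO hosts, growing cells from WT hosts and growing cells from KO hosts.

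KO hosts carried floxed Tgfbr2, the type 2 receptor for transforming growth factor beta, and Cre driven by the Lysozyme 2 promoter, which is active in myeloid cells. The study's sequencing methods also call the control hosts WT, while its figure legend on these libraries calls them floxed Tgfbr2 controls. The genotype is that of the mouse, and a single tumour line was injected in every group. By the column names, libraries of WT hosts are marked batch 1 and those of KO hosts batch 2, with no word on which step the batch was, so host and batch cannot be told apart in any KO against WT difference given here. Dormant against growing differences lie within 1 batch. The study describes the libraries of a group as biological replicates from separate mice. The labels do not record which mouse gave which library.

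Integrins are pairs of an alpha and a beta subunit that span the cell membrane and hold the cell to its matrix. Integrin alpha5 beta1 is the classical fibronectin receptor, pairs of alphav with beta1, beta3 or beta5 bind fibronectin, vitronectin or osteopontin through a short arginine-glycine-aspartate motif, and alpha6 pairs bind laminin. On binding, adaptors such as talin link the beta tail to actin, and focal adhesion kinase, the product of Ptk2, or its relative Pyk2, the product of Ptk2b, passes the signal on through Src to ERK. In disseminated tumour cells this pathway is known for its part in the choice between dormancy and growth. The study raised it around the secreted protein SLURP1, which it proposes acts against integrin, focal adhesion kinase and ERK signalling. It also named urokinase and its receptor there. Il6st encodes gp130, the shared signalling subunit for the interleukin 6 family of cytokines.

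All 10 genes are protein-coding loci on the genome build GRCm38 (mm10), with positions from GENCODE. Fn1 lies at chr1:71585520-71653200 on the minus strand, Itgb1 at chr8:128685654-128733200 on the plus strand, Itgb3 at chr11:104608000-104670476 on the plus strand and Itgb5 at chr16:33829665-33949338 on the plus strand. The alpha subunits lie at chr2:83724397-83806916 (Itgav, plus), chr15:103344286-103366763 (Itga5, minus) and chr2:71745616-71858416 (Itga6, plus). The kinases lie at chr15:73205102-73423280 (Ptk2, minus) and chr14:66153257-66281052 (Ptk2b, minus), and Il6st at chr13:112464070-112510086 on the plus strand. Exons of Fn1 overlap those of Apol7d, and exons of Itgav overlap those of Gm13684, in both cases on the opposite strand. The use of strand in counting is not given in the sources used here, so reads of such pairs may have been shared.

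Promoter sequence was available for 5 of the 10 genes from RefSeq on GRCm38.p6. The 2 shown here belong to Itgb1 and Itgb5, the beta subunits whose RNA was lower in dormant cells from KO hosts and which followed each other across libraries. Each is the 250 bases before the gene's start, which for Itgb1 is chr8:128685404-128685653 and for Itgb5 is chr16:33829415-33829664, read on the plus strand from 5′ to 3′. Capitals mark the GC box, searched on both strands as GGGCGG and its complement CCGCCC.
Itgb1: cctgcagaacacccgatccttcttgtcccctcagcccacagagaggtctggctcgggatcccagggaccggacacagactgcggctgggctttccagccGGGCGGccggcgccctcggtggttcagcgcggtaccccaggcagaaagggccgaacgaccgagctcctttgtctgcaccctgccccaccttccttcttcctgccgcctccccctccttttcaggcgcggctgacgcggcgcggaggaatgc
Itgb5: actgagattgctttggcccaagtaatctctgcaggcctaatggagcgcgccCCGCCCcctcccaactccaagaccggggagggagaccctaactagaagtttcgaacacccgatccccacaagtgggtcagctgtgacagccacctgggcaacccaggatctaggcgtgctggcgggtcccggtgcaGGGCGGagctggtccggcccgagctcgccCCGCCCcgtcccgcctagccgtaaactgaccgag

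The Itgb1 window held 1 GC box and the Itgb5 window 3, at a GC content of 68.0% and 65.2% against a median of 52.4% over all promoters. Among the windows not shown, that of Itga5 held 2 GC boxes, that of Il6st 1 and that of Itgav 0. A GC box was present in 32.7% of the 32851 promoters of the same length. The letters CCCCACCC, TGANTCA and TGACGTCA, searched on both strands, were not in the windows of the 5 genes and were in 9.05%, 6.75% and 1.55% of all promoters. A match of letters is a description of the window and no evidence of binding.

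Signs of other cells differed between the groups. Between 11325 and 15315 genes were above 0 per library, with the lowest range, 11325 to 13242, in dormant cells from WT hosts. TPM is a relative transcript level with gene length and library total divided out, and the read depth behind it is unknown. Of the tumour markers, Krt8, Krt18 and Vim were read in every library, but Epcam averaged 0.03 to 3.01 TPM and Cdh1 0.08 to 1.42 TPM over the groups, so these defining epithelial genes were near absent. The summed level of the 11 tumour and keratin genes was 33451 to 41314 TPM in dormant cells from WT hosts and 2152 to 2727 TPM in those from KO hosts, and it was 33124 to 35414 and 30497 to 34390 TPM in growing cells from WT and KO hosts. Most of this sum was Spp1 (osteopontin). Without Spp1 the other 10 genes summed to 969 to 1362 TPM in dormant cells from WT hosts and 916 to 1218 TPM in those from KO hosts, but these sums hold opposite differences. Mean levels of Krt8 (251 and 79.4 TPM), Vim (684.5 and 393 TPM) and Cd44 (33.8 and 8.03 TPM) were lower in KO hosts, while Krt19 (0.20 and 312 TPM) and Krt7 (0 and 41.8 TPM) were higher, and Krt19 is also a mesothelial marker. Of all 11 genes 4 had the lower mean in KO hosts (Spp1, Krt8, Vim and Cd44) and 7 the higher (Krt19, Krt7, Krt18, Krt14, Krt5, Epcam and Cdh1). The 9 alveolar type 2 markers summed to 49.0 to 141 TPM in dormant cells from WT hosts and to 40073 to 42413 TPM in those from KO hosts. The 9 mesothelial markers summed to 0.72 to 75.9 and to 11799 to 13580 TPM in the same groups. The 12 endothelial markers summed to 11.7 to 148 and to 1141 to 1156 TPM, and the 12 fibroblast markers to 117 to 211 and to 1870 to 2129 TPM. All 12 endothelial markers had the higher mean in KO hosts, whereas of the fibroblast markers 8 did, led by Dcn, and Lum, Pdgfra, Pdgfrb and Cspg4 had the lower mean. The part of these lists in the differences below was not tested, and in sorted bulk material fewer cells of a type and less RNA per cell cannot be told apart.

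**Figure D1:**
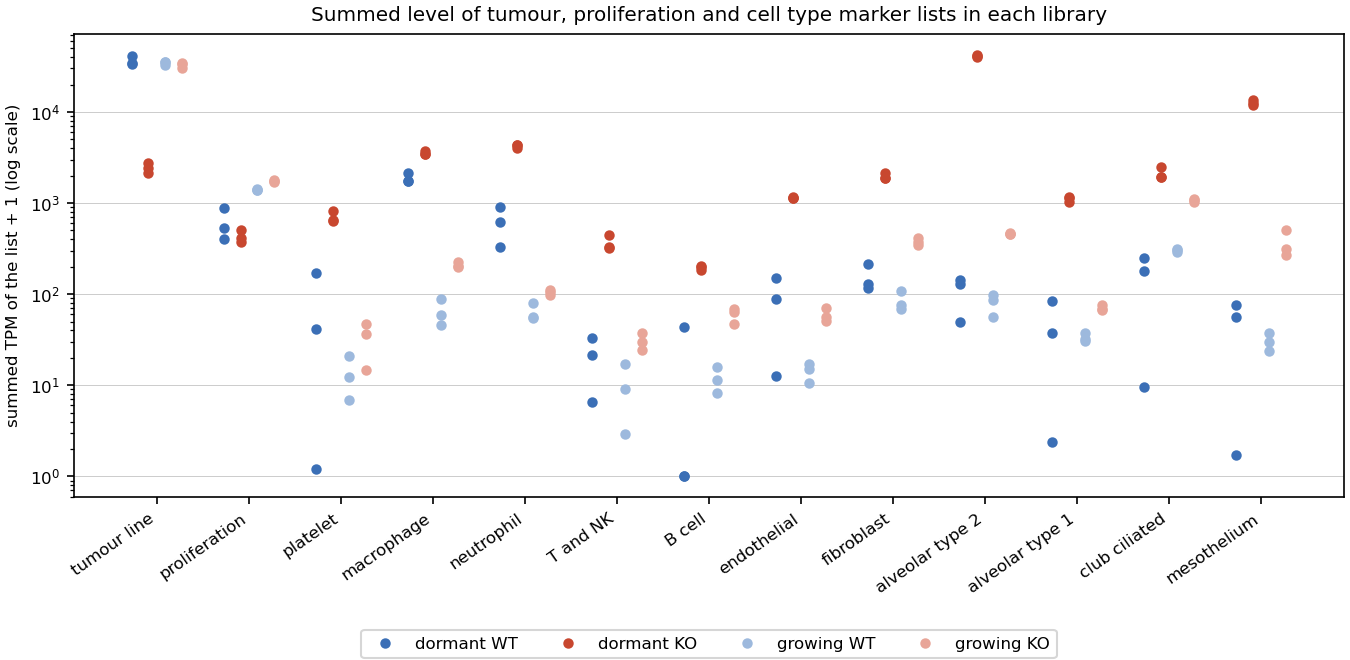
Summed TPM of each marker list, plus 1 on a log axis, in each of the 12 libraries, with colours for the 4 groups. Dormant cells from KO hosts stood above the other groups for the alveolar type 2 list (40073 to 42413 TPM) and the mesothelial list (11799 to 13580 TPM), and below them for the tumour and keratin list (2152 to 2727 TPM), most of which is Spp1.

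In dormant cells, the ligand Fn1 and the beta subunits Itgb1 and Itgb5 were lower in KO hosts than in WT hosts, and the kinase gene Ptk2b was higher. A figure legend of the study names Itgb1 and Fn1, with urokinase and its receptor, beside increased SLURP1. That legend can be read as an increase in these genes as well, and it names no pair of groups. A gene was called when the limma test gave a Benjamini-Hochberg adjusted p of at most 0.05 and the difference in log2(TPM + 1) was at least 1. By that rule 4 of the 9 tested genes were called, 1 higher and 3 lower, where 22.3% of all tested genes were called, 12.9% higher and 9.39% lower. The groups did not overlap for 6 of the 9, where 31.5% of all tested genes showed no overlap. The median difference of the 9 genes was -1.16, beside 0.17 over all genes. Another scaling moved the median of all genes in this comparison to 0.50 (median-ratio scaling) or -0.14 (quantile normalization), and the 4 calls held under both.

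**Figure D2:**
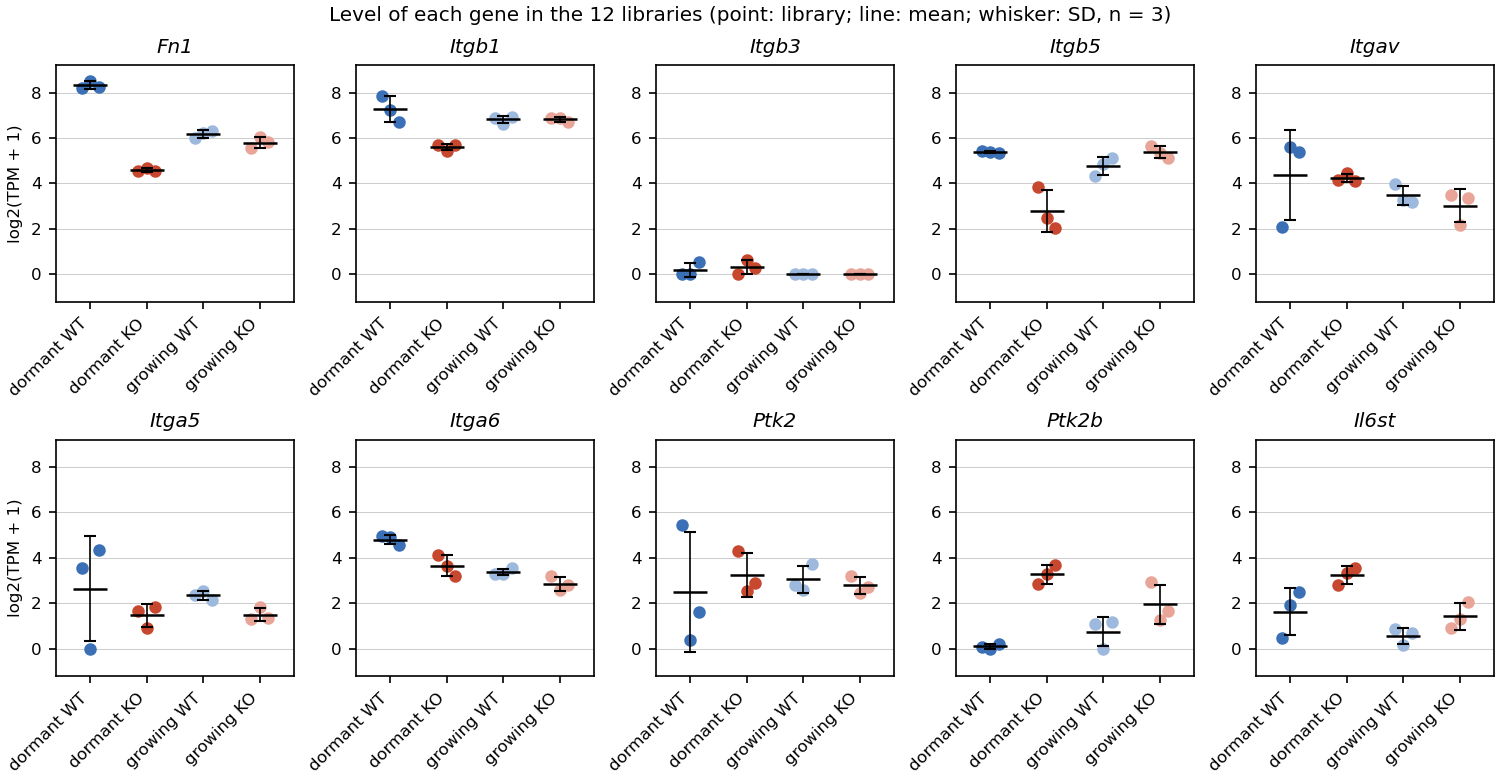
Level of each of the 10 genes as log2(TPM + 1) in each of the 12 libraries (points), by group, with a line at each group mean and whiskers of 1 SD (n = 3). Fn1 stood at 297 to 368 TPM in dormant cells from WT hosts and 22.1 to 24.5 TPM in those from KO hosts, and Ptk2b at 0 to 0.16 and 6.22 to 11.7 TPM.

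Fn1, which encodes the fibronectin that integrin pairs bind, had 297, 368 and 304 TPM in the dormant libraries from WT hosts. In the dormant libraries from KO hosts it had 22.1, 24.5 and 22.7 TPM. Every WT library lay above every KO library, and the KO libraries were close to each other (mean 23.1 ± 1.25 TPM, SD, n = 3, against 323 ± 39.0 TPM). The difference in log2(TPM + 1) was -3.75 ± 0.26 (SE), a level 13.4-fold lower on that scale, with an adjusted p of 2.33e-06 from limma. It was called under all 15 alternatives tried. The growing libraries lay between these extremes, at 62.9, 73.4 and 78.4 TPM in WT hosts and 45.6, 65.3 and 54.9 TPM in KO hosts. The order of the group means was dormant WT, growing WT, growing KO and dormant KO, and of the neighbours in it only the growing groups overlapped. Fn1 ranked at 511 of the 54146 genes by its mean level in dormant cells from WT hosts and at 3124 in those from KO hosts.

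Itgb1, the beta subunit shared by the widest set of alpha partners, had 232, 148 and 104 TPM in the dormant libraries from WT hosts and 50.3, 42.2 and 50.6 TPM in those from KO hosts. The WT libraries spread over more than a doubling and still lay wholly above the KO libraries. The difference was -1.66 ± 0.30 on the log2(TPM + 1) scale (adjusted p = 0.00174, limma), and it was called under all 15 alternatives. In growing cells the level was 117, 98.1 and 121 TPM in WT hosts and 115, 118 and 104 TPM in KO hosts, and the groups overlapped. The mean was 112 TPM in both growing groups, with an SD of 12.2 and 7.52 TPM.

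Itgb5, which pairs with alphav to bind vitronectin, was steady in dormant cells from WT hosts, at 42.5, 41.1 and 39.2 TPM. It had 13.4, 4.53 and 3.13 TPM in dormant cells from KO hosts. Replicate 1 of the KO libraries stood above the other two, and none of the 3 reached the WT range. The difference was -2.60 ± 0.49 (adjusted p = 0.00239, limma), and it was called in 14 of 15 alternatives. With libraries weighted by their quality the difference was -2.55 and the adjusted p 0.0501, which ends the call. Growing cells had 19.1, 27.8 and 33.8 TPM in WT hosts and 49.8, 39.8 and 34.1 TPM in KO hosts.

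Itgb3, the beta subunit of platelets and of the alphav beta3 receptor, was at the edge of detection. It was listed at 0, 0 and 0.44 TPM in dormant cells from WT hosts, at 0.01, 0.57 and 0.21 TPM in those from KO hosts, and at 0 in all 6 growing libraries. No fold or test was given. Of the markers of platelets, which carry Itgb3, 8 of 10 were listed at 0 in all dormant libraries from WT hosts, with a summed level of 0.19 to 169 TPM, against 630 to 823 TPM in those from KO hosts.

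None of the alpha subunits was called in dormant cells. Itgav, the partner of several beta subunits in binding fibronectin and vitronectin, had 3.19, 47.8 and 41.3 TPM in WT hosts and 16.8, 21.0 and 16.3 TPM in KO hosts. Replicate 1 of the WT libraries lay below all KO libraries and the other two above them, so the groups overlapped (-0.12 ± 0.84, adjusted p = 0.951). Itga5, the fibronectin-specific alpha subunit, had 10.8, 0 and 19.5 TPM in WT hosts and 2.14, 0.86 and 2.54 TPM in KO hosts. The WT libraries lay on either side of the KO range (-1.18 ± 0.92, adjusted p = 0.405). Without dormant WT replicate 2, the library listed at 0, the Itga5 difference was -2.50 with an adjusted p of 0.00498, so that 1 library decides this call.

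Itga6, the laminin-binding alpha subunit, had 29.6, 28.9 and 22.5 TPM in dormant cells from WT hosts and 16.4, 11.2 and 8.10 TPM in those from KO hosts. These groups did not overlap, but the difference of -1.16 ± 0.44 did not pass the test (adjusted p = 0.0809, limma). With no filter on low values the same difference had an adjusted p of 0.0374 and was called. Within each host growing cells had the lower mean, at 8.83, 8.58 and 10.6 TPM in WT hosts and 8.07, 4.95 and 5.87 TPM in KO hosts. Neither difference between states was called in the main fit.

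The kinase genes behaved differently from each other. Ptk2, which encodes focal adhesion kinase, had 42.8, 0.29 and 2.08 TPM in dormant cells from WT hosts and 18.9, 4.71 and 6.41 TPM in those from KO hosts. The WT libraries spread from near 0 to the highest value of all 12 libraries, and the difference of 0.76 ± 1.08 was smaller than its error (adjusted p = 0.673). Without dormant WT replicate 1 it was 2.24 with an adjusted p of 0.0319, so the call rests on that library. In growing cells Ptk2 had 6.02, 5.03 and 12.2 TPM in WT hosts and 8.23, 4.47 and 5.46 TPM in KO hosts, within the range of the dormant cells from KO hosts or just under it.

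Ptk2b, which encodes the focal adhesion kinase relative Pyk2 and is known from leukocytes and platelets, had 0.05, 0 and 0.16 TPM in dormant cells from WT hosts. It had 6.22, 8.69 and 11.7 TPM in those from KO hosts, all above the WT libraries. The difference was 3.17 ± 0.55 on the log2(TPM + 1) scale (adjusted p = 0.00133, limma). It was called in 14 of 15 alternatives, with the exception of weighted libraries (3.15, adjusted p = 0.0611). Since the WT level is near 0 its size follows the pseudocount, from 1.43 with 5 added to 5.78 with 0.1 added. Growing cells had 1.13, 0 and 1.23 TPM in WT hosts and 6.58, 1.37 and 2.17 TPM in KO hosts. The neutrophil, T and NK cell, B cell and platelet lists were higher in KO hosts too. From WT to KO hosts in dormant cells, the 10 neutrophil markers went from 326 to 915 TPM to 4057 to 4365 TPM, the 12 T and NK cell markers from 5.55 to 31.8 TPM to 319 to 447 TPM, and the 8 B cell markers from 0.02 to 43.1 TPM to 184 to 203 TPM. The 14 macrophage markers did not move as a list. Lyz2 was higher in KO hosts (mean 2898 against 1080 TPM), but the other 13 summed to 706.5 to 961 TPM in WT hosts and 533 to 738 TPM in KO hosts. Of the 14, 6 had the higher mean in KO hosts and 8 the lower, the latter being C1qa, C1qb, C1qc, Mrc1, Adgre1, Marco, Mertk and Siglecf. Most of the neutrophil sum was S100a8 (mean 430 TPM in WT hosts and 3160 TPM in KO hosts) and S100a9 (178 and 1073 TPM). Of the 10 neutrophil markers 5 had the higher mean in KO hosts, and Cxcr2 had the lower (9.65 and 1.34 TPM). The other 4, Elane, Ltf, Camp and Mpo, were at 0 in all dormant libraries of both hosts. The part of these cell types in the Ptk2b difference was not tested.

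Il6st, the gp130 subunit, had 0.39, 2.81 and 4.53 TPM in dormant cells from WT hosts and 5.89, 8.93 and 10.8 TPM in those from KO hosts. The groups did not overlap, but the difference of 1.59 ± 0.60 did not pass the test (adjusted p = 0.0755, limma). Median-ratio scaling called it (1.98, adjusted p = 0.0255), as did the fit without dormant WT replicate 3 (2.02, adjusted p = 0.0291). Growing cells had 0.80, 0.13 and 0.60 TPM in WT hosts and 0.85, 1.43 and 3.18 TPM in KO hosts. The order of the group means was dormant KO, dormant WT, growing KO and growing WT, and the dormant WT and growing KO libraries overlapped, while the growing groups did not overlap but did not pass the test (0.84, adjusted p = 1).

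In growing cells, KO against WT hosts gave no call among the 9 genes with limma, where 0.977% of all tested genes were called. At an unadjusted p under 0.05 the number was also 0, where 7.53% of all tested genes were under it, and the smallest unadjusted p belonged to Ptk2b (0.0508, adjusted 0.669). The groups did not overlap for 5 of the 9 genes, Itgb5, Itga5, Itga6, Ptk2b and Il6st, against 23.9% of all tested genes. Their differences were 0.62 for Itgb5, -0.85 for Itga5, -0.52 for Itga6, 1.19 for Ptk2b and 0.84 for Il6st. An exact permutation test of 3 libraries against 3 cannot give a two-sided p under 0.1, so single genes were judged by the fit across all genes. A p that misses the threshold does not show that the hosts were alike.

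Between states within WT hosts, where all libraries share a batch, Fn1 was the 1 gene of 9 called, against 7.51% of all tested genes, 1.85% higher in dormant cells and 5.67% lower. It was higher in dormant than in growing cells by 2.16 ± 0.26 (adjusted p = 0.000562, limma). The groups did not overlap for 3 of the 9, Fn1, Itgb5 and Itga6, where 26.6% of all tested genes showed no overlap. Itgb5 differed by 0.62 (adjusted p = 0.479) and Itga6 by 1.44 (adjusted p = 0.0689, or 0.0370 and called with no filter on low values). Itgb1 overlapped between the states (0.45 ± 0.30, adjusted p = 0.394). Itgav had a difference of 0.89 (adjusted p = 0.565), which became 2.03 (adjusted p = 0.0228) without dormant WT replicate 1. Summed over 9 proliferation genes, the growing cells had more RNA, at 1374 to 1415 TPM against 401 to 887 TPM in dormant cells. Birc5 (mean 84.4 TPM in dormant and 512 TPM in growing cells) and Cdk1 (215 and 336 TPM) made up much of the growing sum. Mki67 (10.03 and 5.12 TPM) and Top2a (45.85 and 41.55 TPM) had the higher mean in dormant cells. Leukocyte markers moved with the state as well. The 14 macrophage markers summed to 1743 to 2142 TPM in dormant and 45.04 to 86.7 TPM in growing cells from WT hosts, with C1qa at a mean of 219 and 3.28 TPM, and the 10 neutrophil markers to 326 to 915 and 53.3 to 79.3 TPM. In KO hosts the growing cells had 199 to 224 TPM of the macrophage and 96.6 to 109 TPM of the neutrophil markers. The part of these in the Fn1 difference was not tested.

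Between states within KO hosts, Fn1, Itgb1 and Itgb5 were lower in dormant than in growing cells. These were the 3 calls among 9 genes, where 17.8% of all tested genes were called, 8.31% higher and 9.48% lower. Itgb5 differed by -2.60 ± 0.49 (adjusted p = 0.00303, limma) and was called under all 15 alternatives. Fn1 differed by -1.21 ± 0.26 (adjusted p = 0.00668) and Itgb1 by -1.22 ± 0.30 (adjusted p = 0.0136), but both calls depended on the scaling. Over all genes the median difference was -0.32 as deposited, 0.09 under median-ratio scaling and -0.14 under quantile normalization. With those scalings Fn1 differed by -0.63 (adjusted p = 0.139) and -0.80 (adjusted p = 0.0684), and Itgb1 by -0.63 (adjusted p = 0.181) and -0.75 (adjusted p = 0.133). Without growing KO replicate 2 the Itgb1 difference of -1.19 had an adjusted p of 0.0501.

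The groups did not overlap for 6 of the 9 genes in this comparison, where 44.7% of all tested genes showed no overlap. Beside the 3 called genes these were Itgav, Itga6 and Il6st, all with higher levels in the dormant libraries. Itgav differed by 1.23 (adjusted p = 0.354) and Itga6 by 0.79 (adjusted p = 0.250). Il6st differed by 1.81 (adjusted p = 0.0549), and 5 of 15 alternatives called it. Ptk2b overlapped, with a difference of 1.32 (adjusted p = 0.124), past the threshold with median-ratio scaling (1.79, adjusted p = 0.0374) and without growing KO replicate 1 (1.81, adjusted p = 0.0432).

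The interaction asks whether the KO against WT difference was the same in dormant and growing cells, and it was called for Fn1, Itgb5 and Itgb1. These 3 of 9 genes were all lower, where 10.1% of all tested genes were called, 6.18% higher and 3.91% lower. For Fn1 the KO against WT difference was -3.75 in dormant and -0.38 in growing cells, and the interaction was -3.37 ± 0.37 (adjusted p = 0.000273, limma). For Itgb5 it was -2.60 and 0.62, with an interaction of -3.22 ± 0.70 (adjusted p = 0.0123). Both were called under all 20 alternatives. For Itgb1 it was -1.66 and 0.01, with an interaction of -1.67 ± 0.42 (adjusted p = 0.0274), called in 12 of 20 alternatives. It was lost without any 1 growing library (adjusted p = 0.0527 to 0.0781) and under median-ratio scaling (0.107) and quantile normalization (0.105). The Ptk2b interaction was not called (1.97, adjusted p = 0.142), so its higher level in KO hosts was not shown to be particular to dormant cells.

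**Figure D3:**
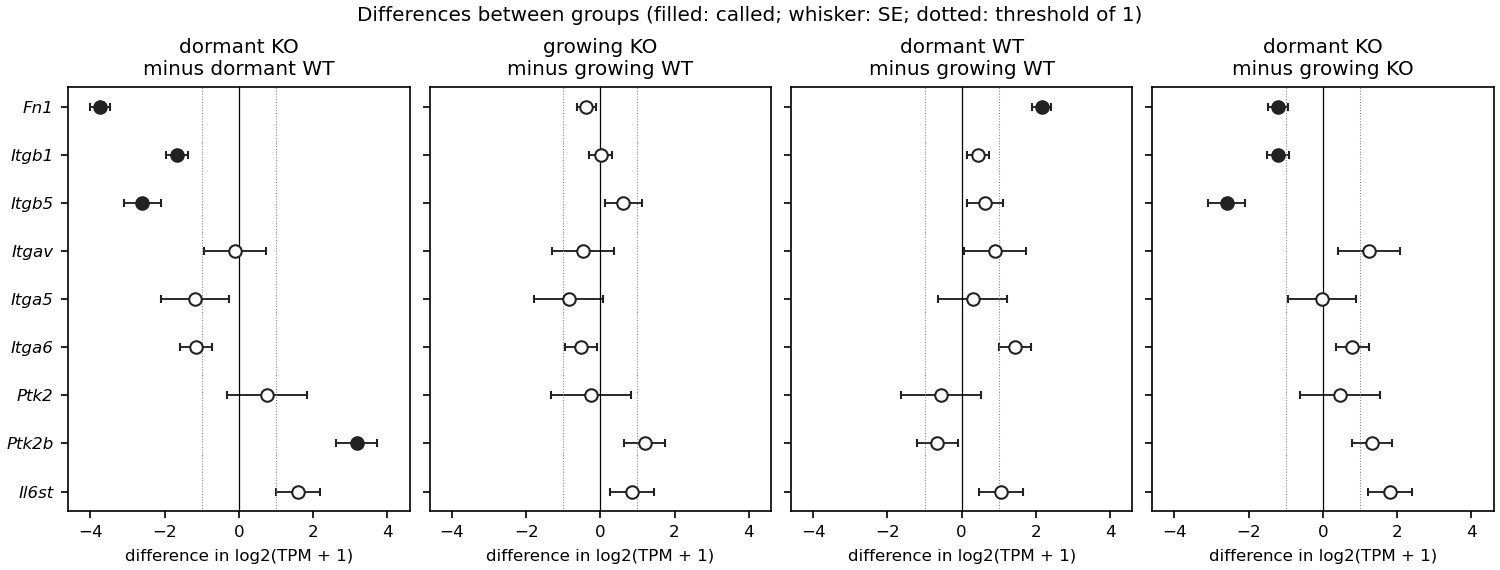
Differences in log2(TPM + 1) with SE for the 9 tested genes, KO minus WT hosts in dormant and in growing cells and dormant minus growing cells in WT and in KO hosts, with filled points for called genes and dotted lines at a difference of 1 either way. Between hosts, in dormant cells Fn1 (-3.75), Itgb5 (-2.60), Itgb1 (-1.66) and Ptk2b (3.17) were called, and in growing cells none of the 9 genes was called.

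Ratios within a library do not change when the library is rescaled. Fn1 RNA was 1.28, 2.49 and 2.92 times the Itgb1 level in the dormant libraries from WT hosts, in rising order, and 0.439 to 0.579 times in those from KO hosts. The growing libraries lay at 0.538 to 0.748 in WT hosts and 0.395 to 0.556 in KO hosts. The ratio of ligand to receptor subunit was thus above 1 in the dormant libraries from WT hosts and below 1 in each of the other 9 libraries. The sum of Itgav, Itga5 and Itga6 was 0.532 to 0.784 times the Itgb1 level in dormant cells from KO hosts, 0.188 to 0.801 times in those from WT hosts, 0.183 to 0.237 times in growing cells from WT hosts and 0.0935 to 0.172 times in growing cells from KO hosts.

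Among the 8 beta subunit genes, Itgb1 made up 65.2% to 69.0% of the summed TPM in dormant cells from WT hosts and 47.8% to 57.04% in those from KO hosts. In growing cells it made up 72.3% to 74.9% in WT hosts and 60.7% to 65.5% in KO hosts, so its share was lowest in the dormant libraries from KO hosts. Itgb5 took 12.2% to 24.5% in dormant cells from WT hosts and 3.53% to 13.8% in those from KO hosts. Itgb2, the leukocyte beta subunit, took 0% to 8.996% and 14.3% to 34.5% in the same groups and at most 1.65% in any growing library. Its own level overlapped between the dormant groups and was not called (31.5, 14.0 and 0 TPM in WT hosts, 13.9, 30.4 and 23.0 TPM in KO hosts). The summed beta level had a mean of 241 TPM in dormant cells from WT hosts and 91.4 TPM in those from KO hosts. Ptk2b made up 24.8%, 64.5% and 64.9% of the summed Ptk2 and Ptk2b level in the dormant libraries from KO hosts and at most 7.14% in those from WT hosts. In growing cells the Ptk2b share was 0% to 15.8% in WT hosts and 23.5% to 44.4% in KO hosts.

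**Figure D4:**
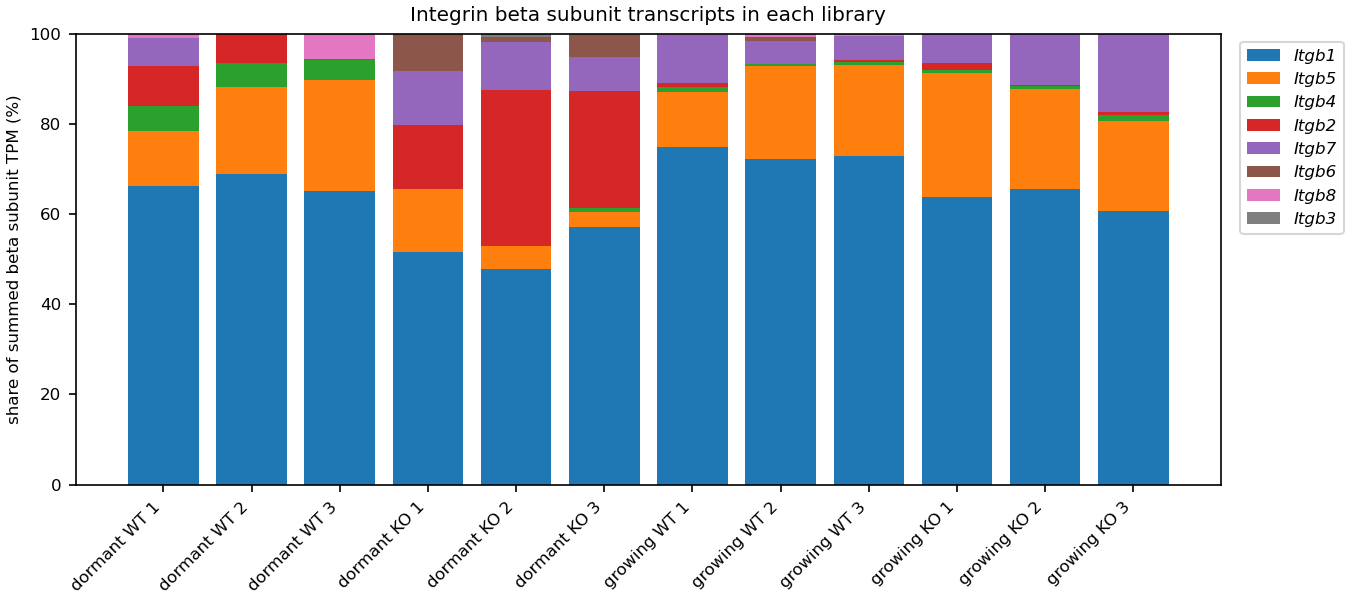
Share of the summed TPM of 8 integrin beta subunit genes (percent, stacked to 100) in each of the 12 libraries. Itgb1 held 47.8% to 57.04% in dormant cells from KO hosts and 60.7% to 74.9% in growing cells, and Itgb2 14.3% to 34.5% and at most 1.65%.

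The rest of the pathway was described by 7 lists, in which 29 of 98 tested genes (29.6%) were called between hosts in dormant cells, beside 22.3% of all tested genes. For 9 of the 29, Itga8, Itgax, Itgb6, Ctgf, Lama3, Lama4, Fermt3, Serpine2 and Il27ra, fewer than 3 libraries outside the dormant KO group reached 1 TPM. They were tested only through the group in which they are high, so their direction was set by the filter on low values, and their levels are a description. None of the 9 tested genes of the main set was of this kind. Setting aside the genes of this kind, 20 of 86 list genes (23.3%) were called, beside 19.3% of the 11292 genes left when all tested genes were cut in the same way. None of the 29 changed sign under another scaling, and 28 remained called under median-ratio scaling (Lama5 was lost) and 23 under quantile normalization (Lama3, Lama5, Nid1, Itga8, Itgb6 and Il27ra were lost). With libraries weighted by quality 16 remained, without Actn1, Crkl and Parva among the adaptors, Itga2b and Itgb6 among the integrins, Ctf1 and Il27ra around gp130, and Col1a2, Col4a1, Lama3, Lama4, Lama5 and Nid1 of the matrix. Genes listed at 0 enter the medians at the log2 of the pseudocount of 1. Of the 15 other alpha subunits 8 were tested, and in dormant cells 3 were higher in KO hosts, none lower and 5 not called, but Itgax and Itga8 are among the genes whose direction the filter set. The median was 0.95, and 0.72 over the 5 genes tested without help of the high group, beside 0.17 over all genes. The 3 were the platelet subunit Itga2b (17.9, 5.98 and 2.34 TPM in KO hosts), the dendritic and alveolar macrophage subunit Itgax (8.52, 3.19 and 2.22 TPM) and Itga8, a fibronectin-binding subunit of mesenchymal cells (2.73, 4.85 and 2.19 TPM). Itga2b and Itgax were listed at 0 in all dormant libraries from WT hosts, and Itga8 was at 0.05 to 0.23 TPM there. Of the 4 tested other beta subunits, Itgb4, the partner of alpha6 in laminin binding, fell by 3.40 (adjusted p = 0.000434, limma). The epithelial Itgb6, also tested through the high group, was at 0.01, 0 and 0.29 TPM in dormant cells from WT hosts and 7.97, 0.88 and 4.39 TPM in those from KO hosts. Itgb4 was also the 1 called in WT hosts between states, higher in dormant cells by 2.56 (adjusted p = 0.00970).

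Among 20 tested matrix ligands other than fibronectin, 6 were called higher and 6 lower in KO than in WT hosts in dormant cells (12 of 20, beside 22.3% of all tested genes). The direction of Ctgf, Lama3 and Lama4 was set by the filter on low values. Of the 17 genes left without them 9 were called, beside 19.3% of all tested genes cut in the same way. The median was 0.47, and -0.29 over those 17 genes. Spp1, osteopontin, fell from 35300 ± 4058 to 1390 ± 140 TPM, a difference of -4.66 (adjusted p = 5.20e-11). Thbs2, a thrombospondin, fell by 5.38 (adjusted p = 2.91e-05), and Lamb1, Cyr61, Lama5 and Mfge8 fell with it. The collagen genes Col1a2 and Col4a1 rose, as did Nid1. Ctgf was listed at 0 in all dormant libraries from WT hosts and at 9.74, 51.2 and 30.6 TPM in those from KO hosts, and the laminin genes Lama3 and Lama4 were listed at 0 and at 0.83 to 14.0 TPM. Col1a2 belongs to the fibroblast list too, whose sum was higher in KO hosts as given above.

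Of 25 tested focal adhesion adaptors and linkers 2 were called higher, 4 lower and 19 not called in dormant cells from KO hosts (median 0.49), so that 24.0% were called, near the 22.3% of all tested genes. Without Fermt3, whose direction the filter set, 5 of 24 were called, beside 19.3% of all tested genes cut in the same way. Flna, the actin crosslinker filamin A that binds beta tails, had 92.0, 105 and 76.6 TPM in WT hosts and 26.7, 14.9 and 6.31 TPM in KO hosts, a difference of -2.63 (adjusted p = 0.00117, limma). Parvb fell by 3.61 (adjusted p = 0.00176), Crkl by 2.49 (adjusted p = 0.0189) and Actn1 by 2.01 (adjusted p = 0.0221). Parva rose by 1.70 (adjusted p = 0.0218). Fermt3, the kindlin of blood cells, was at 9.51, 5.36 and 4 TPM in dormant cells from KO hosts and at 0 to 0.67 TPM in every other library, and it was tested only through the group where it is high. Talin, vinculin and paxillin were not called (Tln1 0.27, Vcl -1.78 and Pxn -0.21).

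The kinases and adaptors between focal adhesion kinase and ERK gave 1 call among 21 tested genes, Rhoa, higher by 1.76 (adjusted p = 0.00970), with a median of 0.48. This is 4.76% of the list, beside 22.3% of all tested genes. Src itself differed by -0.20 (adjusted p = 0.866). In the urokinase system 5 of 7 genes were tested, and the 1 called was Serpine2, of those set by the filter, listed at 0 in the dormant libraries from WT hosts and at 6.80, 5.29 and 15.2 TPM in those from KO hosts (median of the list -0.31, and -0.95 without it). The receptor Plaur had 220, 112 and 497 TPM in dormant cells from WT hosts and 244, 255 and 186 TPM in those from KO hosts, and the groups overlapped (-0.03, adjusted p = 0.979). Its ligand Plau had 0.24, 0.36 and 33.8 TPM and 2.26, 3.74 and 0.97 TPM in the same libraries (-0.31, adjusted p = 0.888).

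Around gp130, 2 of 15 tested genes were called higher and 2 lower in dormant cells from KO hosts (26.7% called, near the background of 22.3%, median -0.21). Il27ra, Lifr and Osm were tested only through the group where they are higher. Without them 3 of 12 were called, beside 19.3% of all tested genes cut in the same way. The ligand gene Ctf1 rose by 3.10 (adjusted p = 0.0226). The receptor gene Il27ra, whose direction the filter set, was listed at 0 in dormant cells from WT hosts and at 3.91, 2.06 and 0.83 TPM in those from KO hosts. Clcf1, another ligand, fell by 4.10 (adjusted p = 0.00167). Stat3, the transcription factor downstream of gp130, had 61.0, 26.0 and 15.7 TPM in WT hosts and 3.33, 7.96 and 4.03 TPM in KO hosts, a difference of -2.39 (adjusted p = 0.00919). Stat3 and Il6st therefore lay on opposite sides of 0 in the same comparison, although Il6st was not called.

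Between hosts in growing cells, limma called 0 of the 98 list genes, beside 0.977% of all tested genes, and 2 had an unadjusted p under 0.05. Between states in KO hosts 18 of 98 (18.4%) were called, beside 17.8% of all tested genes. Tln1 and Tns3 were higher in dormant cells. Itgax, Itga8, Itgb6, Ctgf, Fermt3, Serpine2 and Lifr were called higher too, but were tested only through the dormant KO libraries. Setting aside genes tested only through the group where they are higher, 11 of 84 (13.1%) were called. The share was 14.5% of all tested genes cut in the same way. Ibsp, Spp1, Cyr61, Thbs2, Lamb1, Mfge8, Flna, Plat and Il11 were lower. Between states in WT hosts 5 of 98 (5.10%) were called, beside 7.51%, with Itgb4, Thbs2, Parvb and Crkl higher in dormant cells and Ibsp lower.

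**Figure D5:**
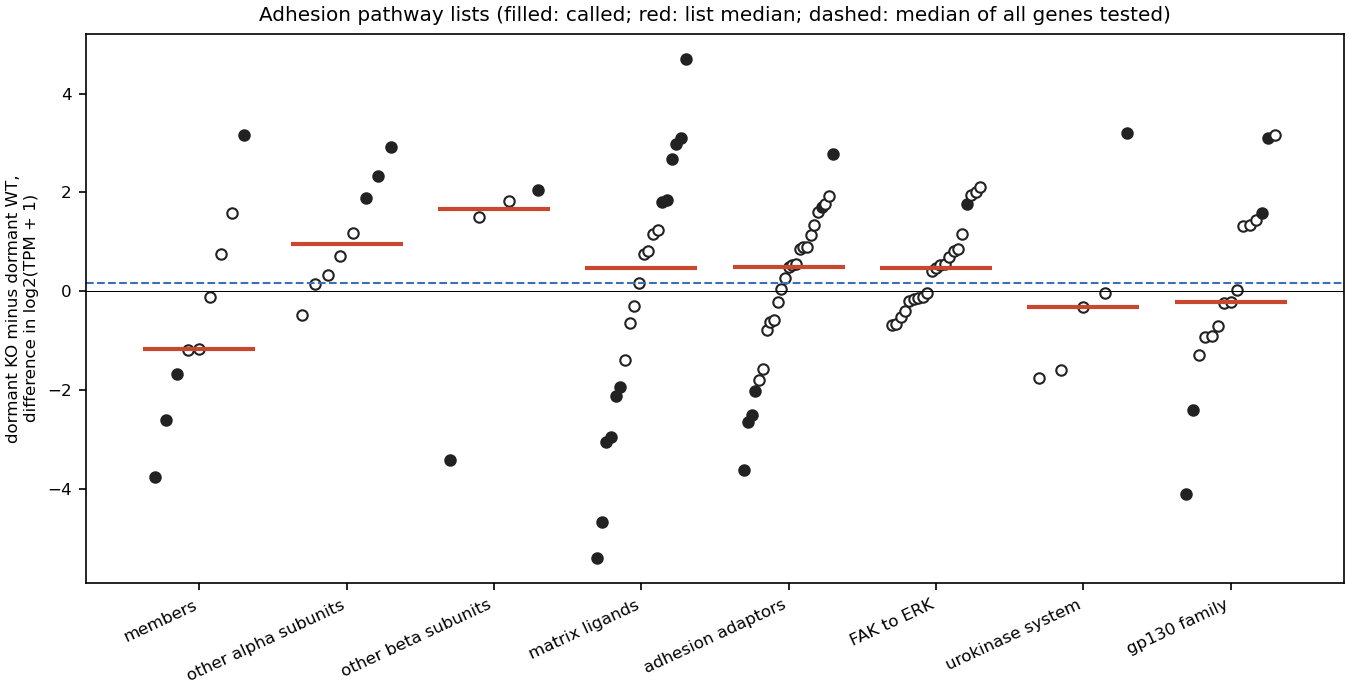
Differences in log2(TPM + 1) between KO and WT hosts in dormant cells for each tested gene of the members and the 7 lists, 1 column per list, with called genes filled, list medians in red and the median of all tested genes dashed (0.17). Called genes lay on both sides of 0 for the matrix ligands (6 higher, 3 of them set by the filter on low values, and 6 lower) and the adaptors (2 higher, 1 of them set by the filter, and 4 lower), and 1 of 21 was called from focal adhesion kinase to ERK.

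Across the 12 libraries the genes most like each member were found by Pearson's r of log2(TPM + 1), as a description over libraries that share group, host and batch. Itgb1 and Itgb5 had r = 0.85 with each other, Fn1 had 0.80 with Itgb1 and 0.68 with Itgb5, and Ptk2b had -0.87 with Fn1. Most like Fn1 were Gm9864 (r = 0.98), RP24-378G4.3 and Slc5a3. Most like Itgb1 were Dusp2 (0.97), Mpv17 and Dap, and most like Itgb5 were Xrn2 (0.96), Flna and Prrx1. Itgav was closest to Ttc28 (0.90), Itga5 to Dse (0.95), Itga6 to Trip12 (0.97) and Ptk2 to Cmtr1 (0.92). Ptk2b was closest to Syce2 (0.95), Iglc2 and Ppic, of which Iglc2 encodes an immunoglobulin light chain constant region. Il6st was closest to Ramp2 (0.94), Sox18 and Egr1, and Ramp2 is 1 of the 12 endothelial markers.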

How the data were processed

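RNA of sorted D2A1 cells was measured in 12 libraries. The study's methods give a Smart-seq protocol for the libraries and the labels a TruSeq mRNA kit. The submitters' processing notes name cutadapt 1.18, STAR 2.5.2b and RSEM 1.3.3 on mm10, and the methods name a GENCODE annotation. The values deposited by the authors are TPM, which keep no depth, so no counting interval could be given. No labelled sample matched 30 other per-sample columns, which were left out.

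TPM was analysed as log2(TPM + 1) for genes of at least 1 TPM in at least 3 libraries (13002 of 25916 above 0). All 12 libraries entered a linear model with 1 mean per group in limma 3.58.1 (R 4.3.3, eBayes with trend, 8 residual degrees of freedom). It was tested two-sided with Benjamini-Hochberg adjustment over all tested genes. The model was also run on simulated data drawn with the same spread in every group, so that run did not check unequal spread between groups. The thresholds, an adjusted p of 0.05 and a log2 difference of 1, are those of the study's methods, whose count model cannot be run on TPM. Reads of similar or overlapping genes are divided by RSEM's estimate, which makes such genes uncertain. Alternatives were pseudocounts of 0.1 and 5, no filter and a minimum of 5 TPM, median-ratio scaling, quantile normalization, a fit of the compared groups alone, array weights (limma's quality weight per library), a replicate block and leaving out each library. All 10 genes were named whatever their values, with, for each tested one, the 3 genes of highest r. Members and gene lists were chosen with earlier results of these data known.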

Additional observations from a re-analysis of the deposited data

Results flagged for a closer look

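The KO against WT difference was unlike in dormant and growing cells for 3 of the 9 tested genes by the interaction term of limma. Host and batch cannot be told apart in that difference. For Fn1 the interaction was -3.37, for Itgb5 -3.22 and for Itgb1 -1.67 on the log2(TPM + 1) scale (adjusted p = 0.000273, 0.0123 and 0.0274). All dormant libraries from KO hosts were below all those from WT hosts for these genes, while in growing cells Itgb5 was higher in all 3 KO libraries and Fn1 and Itgb1 overlapped between hosts. The Itgb1 interaction was lost in 8 of 20 alternatives. The same libraries, dormant cells from KO hosts, also held the highest sums of the alveolar type 2 and mesothelial lists and the lowest sum of the tumour and keratin list. Of the 11 genes of that list, Spp1, Krt8, Vim and Cd44 were lower in all dormant libraries from KO hosts than in all those from WT hosts, and 5 were higher in the same sense (Krt19, Krt7, Krt14, Epcam and Cdh1). The part of these lists in the interaction was not tested.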

How the results depend on the processing

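Of 715 differences of single genes under an alternative, 655 kept their direction and side of the threshold, 15 lost and 14 gained a call, and 31 changed sign, in each case a difference called in neither setting. For KO against WT hosts in dormant cells, array weights left 2 calls (Fn1 and Itgb1) in place of 4. Array weights were 0.196 to 0.309 in the dormant libraries from WT hosts and 0.699 to 2.78 in the others. Between states in WT hosts, no filter on low values gave 2 calls in place of 1, and leaving out a library gave 1 to 2. Sign changes in dormant cells between hosts were Itgav at 0.35 (median-ratio scaling), 0.29 (quantile normalization) and 0.0437 (array weights) and Ptk2 at -0.0512 (quantile normalization). In growing cells between hosts Itgb1 was at -0.0819 (quantile normalization) and -0.0067 (array weights). Between states in WT hosts Itga5 was at -0.59 (pseudocount 0.1), and Ptk2 at 0.38 and Ptk2b at 0.51 (quantile normalization). Between states in KO hosts Itga5 was at 0.35 (median-ratio scaling), 0.10 (quantile normalization) and 0.0329 (array weights), and its interaction was 0.51 with a pseudocount of 0.1. The cause of these changes was not tested. With single libraries left out, the difference between hosts ranged in dormant cells from -1.26 to 0.51 for Itgav and -0.30 to 2.24 for Ptk2, and in growing cells from -0.0854 to 0.0645 for Itgb1 and -0.48 to 0.0813 for Ptk2. Between states in WT hosts it ranged from -0.57 to 1.61 for Itga5 and -2.05 to 0.50 for Ptk2, and in KO hosts from -0.22 to 0.25 for Itga5 and -0.0817 to 0.82 for Ptk2. The interaction ranged from -0.80 to 0.97 for Itgav, -1.65 to 0.53 for Itga5 and -0.0409 to 2.502 for Ptk2. Libraries with the same replicate number did not deviate together (r of -0.0147 to 0.0206 over 18 pairs, and 3 of 12 libraries closest to their own number), and with a replicate block the calls were 4, 0, 1, 3 and 3 of 9 genes, as without it, while calls over all genes in dormant cells between hosts went from 2898 to 2722. TPM keeps no depth, so levels near 0, as of Itgb3 and of Ptk2b in WT hosts, cannot be told from absence.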
